A study of Chromochloris zofingiensis with 12 samples.

Results

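The 2 single stresses of the study, low nitrate and high irradiance, were compared directly with each other in the green alga *C. zofingiensis*. The tested libraries came from LL 1 mM, where cells received 1 mM nitrate and a maximum irradiance of 300 µE m−2 s−1, and were set against HL 10 mM, with 10 mM nitrate and 1000 µE m−2 s−1. These are 6 of the 12 libraries, chosen by their labels, with 3 in each condition. All cells were the wild-type strain CCAP 211/14, grown continuously with 0.5 culture volumes replaced per day, and sampled 4 h into the light period. HL 1 mM, which combines both stresses, and the unstressed LL 10 mM supplied the other 6 libraries. The study's methods state sampling on 3 days in a row and analysis in triplicate. Which of these the 3 libraries of a condition stand for, days of a single reactor or separate reactors, is not given in the sources used here, and the p-values therefore cover only the spread between samples, which may be technical. The 2 conditions differ in nitrate and in light at once, so a difference between them cannot be ascribed to either factor without the LL 10 mM level. This level is given beside the difference for most, not all, of the genes named. Where the LL 10 mM mean lay relative to both stresses is given further below for the carotenogenic genes.

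Carotenoids are isoprenoid pigments that quench reactive oxygen, and primary ones such as lutein also take part in light harvesting in the chloroplast. Phytoene is built from geranylgeranyl diphosphate, desaturated and isomerized to lycopene, and lycopene is cyclized either to α-carotene, the precursor of lutein, or to β-carotene, from which zeaxanthin, the xanthophyll cycle pigments, neoxanthin and the red ketocarotenoids canthaxanthin and astaxanthin derive. *C. zofingiensis* is known for accumulating lutein as a primary carotenoid and astaxanthin as a secondary carotenoid under stress. The 25 genes of these steps are the only genes that the sources pair with a name, and all 25 were found in the expression table.

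Expression was given as FPKM, the fragments on a gene per kilobase of its transcript and relative to all mapped fragments of the library, a unit read from the values. The depth of each library is unknown, because the table carries no counts. The paper's methods give only an approximate number of reads per sample. Levels below are normalized FPKM, that is, after quantile normalization of log2(FPKM + 1) over the 12 libraries, unless called deposited. The difference of a gene is its mean in LL 1 mM minus its mean in HL 10 mM on that log2 scale, where the pseudocount of 1 shrinks the changes of low genes. The test was that of limma over the 14916 genes, those not at 0 in all 12 libraries among the 15274 of the table, and a gene passed where its p, adjusted by Benjamini and Hochberg, was under 0.05. With 3 libraries against 3, an exact permutation test cannot give a p below 0.1.

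The libraries of the 2 stresses differed in how expression was spread over genes. The 100 most abundant genes held 30.5, 31.7 and 29.9% of the summed FPKM in LL 1 mM, against 38.5, 40.2 and 37.5% in HL 10 mM, and the single most abundant gene held 3.36 ± 0.0755% and 5.57 ± 0.286% (SD, n = 3). LL 1 mM lay below HL 10 mM in every library, and LL 10 mM was highest for the 100 most abundant genes, at 45.6 ± 1.42%. The median FPKM of the tested genes was 18.3 ± 0.628 in LL 1 mM and 13.7 ± 0.883 in HL 10 mM (two-sided exact permutation p = 0.1 for each of these 3 measures, the smallest possible). The values of many genes depend on the scaling. The median difference over all genes was −0.07 after quantile normalization, 0.23 on FPKM as deposited and −0.17 with all libraries scaled to the same median, and this last scaling lowered the difference of every gene by 0.40 against deposited FPKM. The 25 carotenogenic genes together held 0.139 ± 0.00349% of the summed FPKM in LL 1 mM and 0.145 ± 0.00412% in HL 10 mM, which did not differ beyond the spread between libraries (two-sided exact permutation p = 0.2). Replicates were alike in spread, with a median SD per gene of 0.12 on the log2 scale in each of the 2 conditions over 13054 genes with a mean FPKM of at least 1.

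Across the transcriptome, more genes stood 2-fold or more higher than lower in LL 1 mM relative to HL 10 mM. Among genes that passed the test and differed 2-fold or more, 865 were higher (5.8% of those tested) and 341 were lower (2.29%), together 8.09%. The large differences were nearly all on the higher side, with 165 genes higher and 21 lower by at least 4-fold, 59 and 2 by at least 8-fold, and 18 and 0 by at least 16-fold. At the adjusted p alone the balance turned, with 3267 genes higher (21.9%) and 4455 lower (29.9%), together 51.8%. These splits rest on the scaling. Genes higher in LL 1 mM made up 71.7% of the calls at 2-fold and 42.3% at the adjusted p alone, against 93.9% and 80.0% on deposited FPKM, and 70.5% and 35.3% with libraries scaled to the same median. For 12180 genes, 81.7% of those tested, the 95% interval of the difference lay within a 2-fold change either way, and 6805 of the 7194 genes that did not pass the test were among them.

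**Figure D1:**
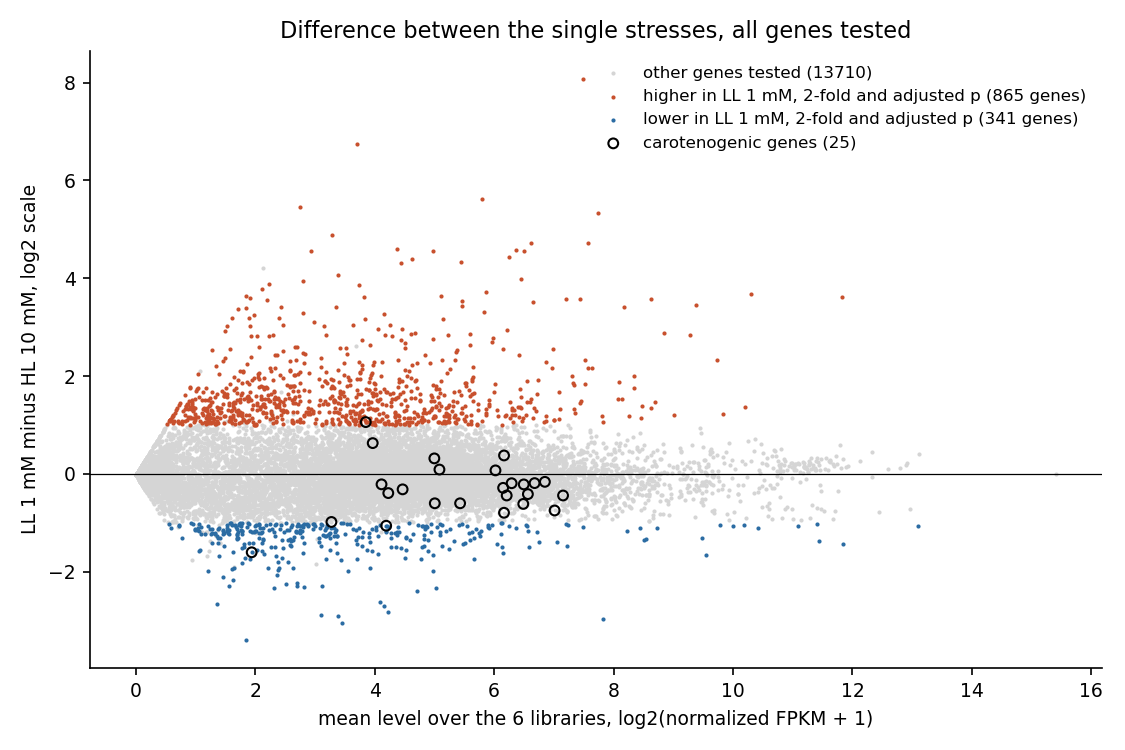
Difference between LL 1 mM and HL 10 mM on the log2 scale (vertical axis) against the mean level over the 6 libraries (horizontal axis) for the 14916 genes tested, each point a gene. The 865 higher genes reach a difference of 8.08, the 341 lower genes reach −3.39, and the 25 circled carotenogenic genes lie between −1.60 and 1.06.

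The share of genes called varied with level. Among the 3626 genes with a mean FPKM of 1 to 10, 9.98% were higher and 5.05% lower by the 2-fold rule, against 5.16% and 1.45% of the 8064 genes at 10 to 100 and 5.87% and 1.98% of the 1364 genes at 100 or more. Of the 1862 genes under 1 FPKM, 0.376% were higher and 0.752% lower, on a scale where the added 1 compresses their changes. Genes listed at 0 throughout only 1 of the 2 conditions were nearly all on the HL 10 mM side. Of the genes tested, 108 were listed at 0 in all 3 libraries of HL 10 mM and above 0 in all 3 of LL 1 mM, and 1 gene showed the reverse. Over all genes, 14458 ± 74.6 were above 0 in LL 1 mM libraries and 14049 ± 173 in HL 10 mM libraries, with no overlap, beside 14199 ± 64.6 in LL 10 mM (SD, n = 3). The depth of each library is unknown, and the part of this gap in the 108 genes was not tested. For 17 genes every LL 1 mM library exceeded 10 deposited FPKM while every HL 10 mM library stayed under 1, and no gene showed the reverse. Of these 17 genes, 10 were also under 1 in every LL 10 mM library and 13 were over 10 in every HL 1 mM library.

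**Figure D2:**
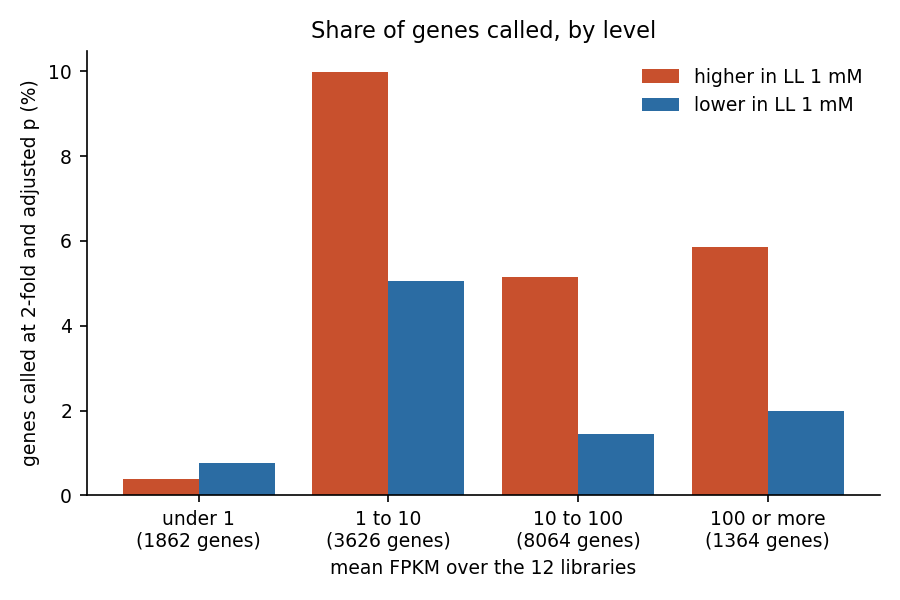
Percentage of genes called by the 2-fold rule (vertical axis), by mean deposited FPKM over the 12 libraries (horizontal axis), with the number of genes under each pair of bars. The share higher in LL 1 mM exceeds the share lower in every class from 1 FPKM up, and is greatest, at 9.98%, for genes at 1 to 10 FPKM.

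The largest difference in either direction was that of Cz13g08120, a gene whose product the sources do not name. It had 2400, 2657 and 2789 deposited FPKM in LL 1 mM, against 8.63, 6.82 and 7.96 in HL 10 mM. Its level in LL 10 mM, 8.13 ± 2.02 deposited FPKM (SD, n = 3), was like that in HL 10 mM. This amounted to a log2 difference of 8.08 (standard error 0.13, adjusted p = 6.21e-11). Next was Cz06g35170, with 156, 137 and 127 deposited FPKM in LL 1 mM, against 0, 0.335 and 0.113 in HL 10 mM, and 0.298 ± 0.0812 in LL 10 mM. Its difference was 6.76 (standard error 0.15, adjusted p = 4.02e-10). The order of these genes rests on the pseudocount. With a pseudocount of 0.1 the difference was 8.87 for Cz06g35170 and 8.21 for Cz13g08120. Both genes were thus at a low level in either 10 mM condition and over 100 FPKM in every LL 1 mM library.

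On the lower side, the 2 genes with the largest differences and no overlap between the libraries were expressed at modest levels. Cz11g13130 had 0, 0 and 0.527 deposited FPKM in LL 1 mM, against 1.07, 21.3 and 17.3 in HL 10 mM. Its libraries were as uneven in LL 10 mM, at 1.06, 10.1 and 66.6. The difference was −3.39 (standard error 1.05, adjusted p = 0.0198). This call was lost without LL 1 mM replicate 1 (adjusted p = 0.0511) or 2 (0.0535), and without HL 10 mM replicate 2 (0.0719) or 3 (0.0617), in a range of 0.00475 to 0.0719 over the alternatives. Cz10g29140 had 5.14, 3.41 and 2.95 deposited FPKM in LL 1 mM, against 30.7, 32.8 and 22.7 in HL 10 mM and 21.3 ± 3.90 in LL 10 mM. Its difference was −3.04 (standard error 0.27, adjusted p = 1.24e-05).

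For most genes that separated the stresses, the unstressed level lay close to that of high light, and the combined stress close to that of low nitrate. The position of each of the other conditions was read on the line from the HL 10 mM mean (0) to the LL 1 mM mean (1). The libraries of these conditions do not enter the difference itself, but they entered the normalization and the pooled variance behind the calls. Of the 865 genes higher in LL 1 mM, LL 10 mM was nearer HL 10 mM for 743 (85.9%) and nearer LL 1 mM for 122, with a median position of 0.18. For the 341 lower genes it was nearer HL 10 mM in 280 (82.1%), with a median position of 0.17. Over all genes tested, where most differences are small, the share nearer HL 10 mM was 68.6%. LL 10 mM lay beyond the HL 10 mM mean in 206 higher (23.8%) and 108 lower genes (31.7%), against 35.9% of all genes tested.

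The combined condition stood on the low nitrate side. HL 1 mM was nearer LL 1 mM than HL 10 mM for 850 of the 865 higher genes (98.3%) and for 316 of the 341 lower genes (92.7%), against 80.8% of all genes tested. For 584 of the higher genes (67.5%) and 204 of the lower genes (59.8%) its mean lay beyond that of LL 1 mM, against 56.4% of all genes tested, so that the share among lower genes was near the background. The median positions were 1.10 for higher genes, 1.05 for lower genes and 1.08 over all genes. Genes for which the combined condition was nearer to high light alone numbered 15 among the higher and 25 among the lower ones.

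**Figure D3:**
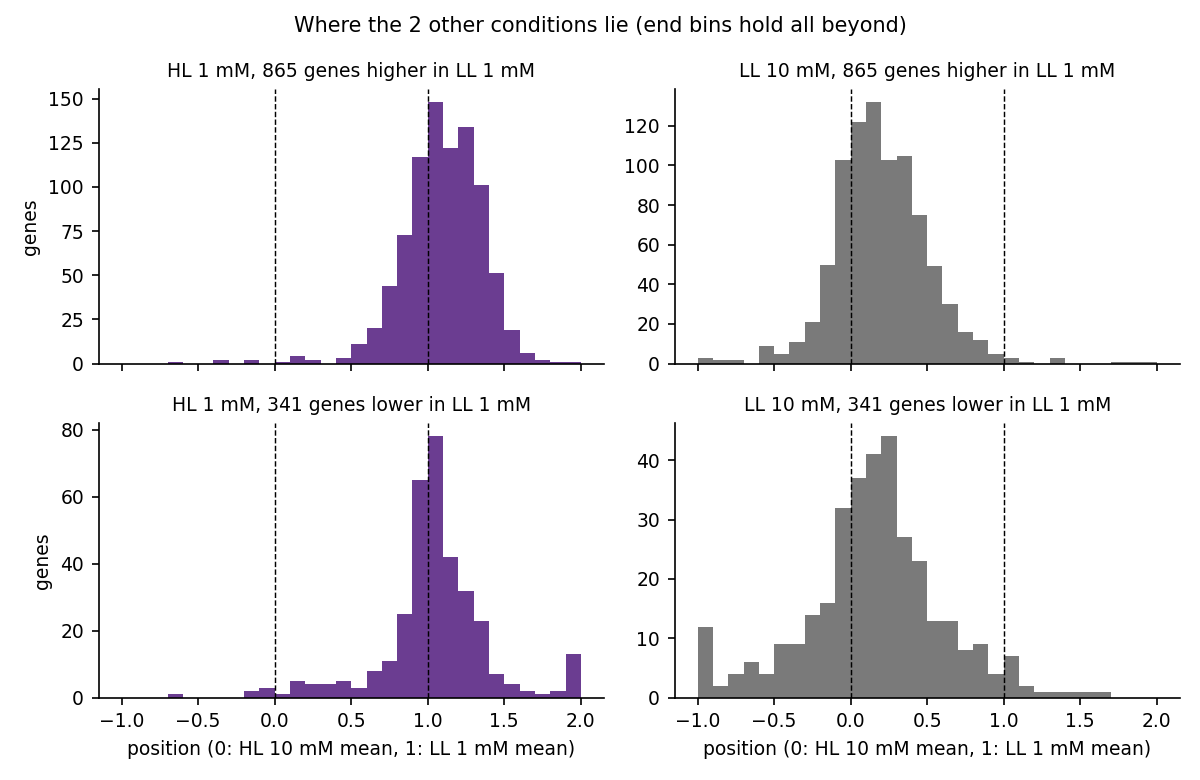
Number of genes (vertical axis) by the position of the HL 1 mM mean (left) and of the LL 10 mM mean (right) on the line from the HL 10 mM mean, at 0, to the LL 1 mM mean, at 1, for the 865 genes higher (top) and 341 lower (bottom) in LL 1 mM. HL 1 mM gathers around 1, with medians of 1.10 and 1.05, and LL 10 mM near 0, with medians of 0.18 and 0.17.

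Among the carotenogenic genes, most stood lower under low nitrate than under high light. Of the 25 genes, 3 were higher in LL 1 mM, 16 were lower and 6 did not pass the test, beside 21.9% higher and 29.9% lower of all genes tested. The study published p-values for these genes from the same samples, so the list is not independent evidence of its direction. Their median difference was −0.32, against −0.07 for all genes. The LL 1 mM libraries all lay below the HL 10 mM libraries for 17 of the genes and all above for 4, where 34.3% and 24.3% of all genes tested did so. On deposited FPKM 4 were higher and 13 lower, and with libraries scaled to the same median 2 and 19. A block on the replicate number, which the main model lacked, gave 4 and 18. Relative to the median of all genes, 19 of the 25 lay lower in LL 1 mM after quantile normalization and 20 on deposited FPKM. By 2-fold or more, CVDE was higher, and PDS Cz08g09110 and BKT2 were lower. On deposited FPKM the differences of PDS Cz08g09110 and BKT2 were under 2-fold, at −0.71 and −0.89, and that of PDS Cz08g09110 was −0.98 without LL 1 mM replicate 1. When limma tested against a 2-fold change, 0 of the 25 genes passed.

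**Figure D4:**
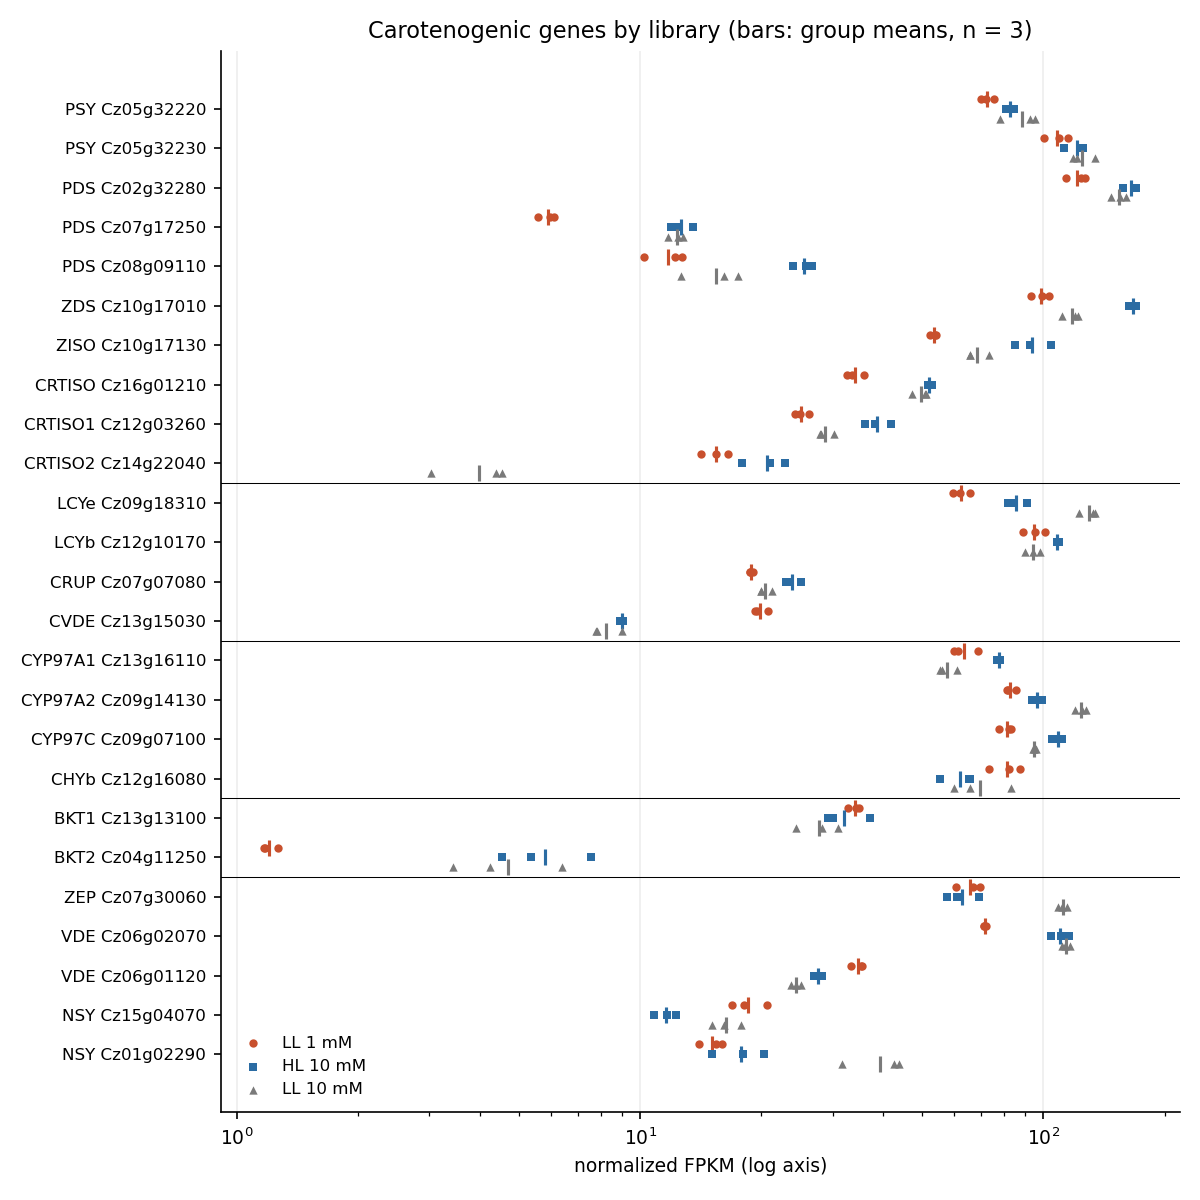
Normalized FPKM (horizontal log axis) of the 25 carotenogenic genes in each library of LL 1 mM, HL 10 mM and LL 10 mM, with the group means as vertical bars and lines between pathway steps. The LL 1 mM libraries lie wholly below those of HL 10 mM for 17 genes and wholly above for 4.

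The genes that lead from geranylgeranyl diphosphate to lycopene were lower in LL 1 mM than in HL 10 mM, or did not pass the test. Of these 10 genes 8 were lower, none was higher, and the 2 for phytoene synthase (PSY), which makes the first carotene of the pathway, did not pass. The differences ran between −1.06 and −0.16, with a median of −0.60. PSY Cz05g32220 had 72.2, 75.3 and 69.9 in LL 1 mM, against 83.2, 84.7 and 80.7 in HL 10 mM, libraries that did not overlap. The difference of −0.19 (95% interval −0.37 to −0.02, adjusted p = 0.0606) passed with a block on the replicate number (adjusted p = 0.0281), with a trended and robust empirical Bayes step (0.0419), and without LL 10 mM replicate 3 (0.0218), a library that enters the pooled variance. Over all alternatives its adjusted p lay between 0.000796 and 0.264. PSY Cz05g32230, whose ID is adjacent, stood at 108 ± 7.32 and 121 ± 7.58 (SD, n = 3), a difference of −0.16 (95% interval −0.34 to 0.02, adjusted p = 0.116) that also passed with the block (0.0284), in a range of 0.00166 to 0.326 over the alternatives. Scaled to the same median, the PSY genes passed, at −0.51 each (adjusted p = 0.000796 and 0.00166).

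The phytoene desaturases (PDS) and ζ-carotene desaturase (ZDS), which introduce double bonds, were lower in all 4 genes. After quantile normalization, PDS Cz07g17250 and PDS Cz08g09110 had the widest gaps of the 10. This order depends on the scaling, as ZDS had a wider gap than PDS Cz07g17250 under both others. The values were −0.69 against −0.42 on deposited FPKM, and −1.09 against −0.82 with libraries scaled to the same median. PDS Cz07g17250 had 5.99, 6.11 and 5.58 in LL 1 mM, against 13.5, 12.5 and 11.9 in HL 10 mM, and 12.3 ± 0.553 in LL 10 mM. Its HL 10 mM level was thus like the unstressed one, and the difference was −0.98 (standard error 0.07, adjusted p = 2.53e-06), or −0.42 on deposited FPKM. PDS Cz08g09110 had 10.2, 12.7 and 12.2 in LL 1 mM, against 23.9, 26.7 and 25.7 in HL 10 mM, and 15.4 ± 2.52 in LL 10 mM, nearer to low nitrate. On deposited FPKM its mean was 12.6 in LL 10 mM, below the 13.7 of LL 1 mM. Its difference was −1.06 (standard error 0.14, adjusted p = 0.00013), or −0.71 on deposited FPKM. PDS Cz02g32280 was the most abundant of the 3 copies, at 121 ± 6.70 in LL 1 mM and 165 ± 6.94 in HL 10 mM, and differed by −0.44 (standard error 0.06, adjusted p = 0.000257), or −0.79 scaled to the same median. ZDS had 103, 99.5 and 93.4 in LL 1 mM, against 169.9, 167 and 163 in HL 10 mM, and 118 on average in LL 10 mM, so that the unstressed level lay between the stresses. It differed by −0.75 (standard error 0.06, adjusted p = 9.95e-06).

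The isomerases, which turn the cis-carotenes made by the desaturases into all-trans lycopene, were lower as well. ZISO, the ζ-carotene isomerase, had 54.3, 52.5 and 53.8 in LL 1 mM, against 84.8, 104 and 92.7 in HL 10 mM (difference −0.80, standard error 0.08, adjusted p = 3.08e-05). Its level in LL 10 mM, 68.4 ± 4.41, lay between the stresses. CRTISO and CRTISO1, carotene isomerases, both differed by −0.60 (adjusted p = 3.21e-05 and 5.45e-05). Their unstressed levels differed in place. CRTISO stood at 34.1 ± 1.76 in LL 1 mM, 52.2 ± 0.767 in HL 10 mM and 49.8 ± 2.20 in LL 10 mM, close to high light, and CRTISO1 at 25.1 ± 0.987, 38.7 ± 2.91 and 28.7 ± 1.29, closer to low nitrate (SD, n = 3). On deposited FPKM the difference of CRTISO1 was −0.38, and its mean was 24.5 in LL 10 mM, below the 27.6 of LL 1 mM. CRTISO2 had 15.5, 16.5 and 14.2 in LL 1 mM, against 22.9, 17.9 and 21.0 in HL 10 mM, both far above the 3.99 ± 0.827 of LL 10 mM, and HL 1 mM was higher than either at 47.9 ± 6.55. Its difference of −0.39 (standard error 0.14, adjusted p = 0.0385) was lost on deposited FPKM, at −0.039 (adjusted p = 0.831, where the alternatives ran between 0.0148 and 0.831), with a pseudocount of 0.1 (0.0625), and without LL 1 mM replicate 1 (0.0745) or 3 (0.116) or HL 10 mM replicate 1 (0.123) or 3 (0.0892).

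At the cyclization of lycopene, the ε-cyclase LCYe, which opens the α-carotene and lutein branch, separated the stresses more than the β-cyclase LCYb did. LCYe had 65.8, 62.1 and 59.9 in LL 1 mM, against 81.5, 91.3 and 83.7 in HL 10 mM, with all 6 libraries below those of LL 10 mM. The difference was −0.44 (standard error 0.08, adjusted p = 0.000829), or −0.76 scaled to the same median. LCYb had 88.9, 95.1 and 101 in LL 1 mM, against 108, 109 and 108 in HL 10 mM. The libraries did not overlap, but the difference was small, at −0.19 (standard error 0.07, adjusted p = 0.0314), and −0.52 scaled to the same median. Over the alternatives the adjusted p lay between 8.8e-05 and 0.116. The call was lost on deposited FPKM (−0.13, adjusted p = 0.116), with the 6 libraries alone in the fit (0.0768), and without LL 1 mM replicate 1 (0.110) or 2 (0.0672) or HL 10 mM replicate 1 (0.0593), 2 (0.0771) or 3 (0.0614). Within a library the ratio of 2 genes does not depend on the library's scaling, and the ratio of LCYb to LCYe in deposited FPKM, chosen after the levels were seen, was 1.35, 1.52 and 1.65 in LL 1 mM, against 1.33, 1.20 and 1.30 in HL 10 mM and 0.708 ± 0.0673 in LL 10 mM (SD, n = 3). The ratio was thus raised over the unstressed level in both stresses, and the LL 1 mM values lay above those of HL 10 mM with a narrow gap.

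CVDE showed the largest rise among the 25 carotenogenic genes in low nitrate relative to high light. In *Chlamydomonas reinhardtii* CVDE is a violaxanthin de-epoxidase related in sequence to the lycopene cyclase family protein CRUP. CVDE had 19.3, 19.4 and 20.8 in LL 1 mM, against 9.06, 8.94 and 9.03 in HL 10 mM, and 8.21 ± 0.719 in LL 10 mM. Its difference was 1.06 (standard error 0.07, adjusted p = 1.38e-06), between 1.04 and 1.54 under the alternatives. CRUP had 18.7, 18.7 and 19.1 in LL 1 mM, against 23.2, 23.0 and 25.0 in HL 10 mM, a difference of −0.32 (standard error 0.07, adjusted p = 0.00279) whose call was lost on deposited FPKM, at −0.011 (adjusted p = 0.929, where the alternatives ran between 0.000634 and 0.929).

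The cytochrome P450 hydroxylases that turn α-carotene into lutein were all lower in LL 1 mM than in HL 10 mM. CYP97C, which hydroxylates the ε-ring, had 83.2, 82.3 and 77.8 in LL 1 mM, against 111, 109 and 105 in HL 10 mM. The difference was −0.41 (standard error 0.05, adjusted p = 0.000134). The unstressed level, with 94.6, 94.3 and 96.0 in LL 10 mM, lay between, but on deposited FPKM the means were 85.2 in LL 1 mM, 108.6 in HL 10 mM and 83.3 in LL 10 mM, which was then below both. CYP97A1, which acts on the β-ring, had 69.0, 61.5 and 59.9 in LL 1 mM, against 76.8, 78.1 and 77.7 in HL 10 mM and 57.6 ± 3.09 in LL 10 mM, and its difference was −0.29 (standard error 0.07, adjusted p = 0.00514). CYP97A2 stood at 82.8 ± 2.14 in LL 1 mM, 96.4 ± 2.77 in HL 10 mM and 124 ± 3.86 in LL 10 mM, and differed by −0.22 (standard error 0.05, adjusted p = 0.00687). The mean of CYP97A2 was below the unstressed level in both stresses under all 3 scalings, and that of CYP97A1 was above it in both except with libraries scaled to the same median. These 3 differences passed the test under every alternative but the test against a 2-fold change, and were −0.74, −0.59 and −0.55 for CYP97C, CYP97A1 and CYP97A2 with libraries scaled to the same median.

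CHYb, the non-heme hydroxylase that converts β-carotene to zeaxanthin, was the only hydroxylase with a higher mean in LL 1 mM. It had 87.7, 82.0 and 73.5 in LL 1 mM, against 65.5, 55.5 and 65.8 in HL 10 mM, with no overlap. The difference of 0.38 (95% interval 0.02 to 0.73, adjusted p = 0.0713) did not pass. The HL 1 mM and LL 10 mM libraries, which enter the same variance estimate, stood at 81.7 ± 16.5 and 69.6 ± 12.1 (SD, n = 3). It passed with a block on the replicate number (adjusted p = 0.0354), with the 6 libraries alone in the fit (0.0246), without HL 1 mM replicate 3 (0.0297) and on deposited FPKM, at 0.48 (0.0335), and stood at 0.084 (0.664) with libraries scaled to the same median. These last values and 0.0246 bound the adjusted p over the alternatives.

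The β-carotene ketolases, which lead to canthaxanthin and astaxanthin, parted from each other. BKT1 had 34.4, 32.7 and 34.9 in LL 1 mM, against 30.1, 29.2 and 37.1 in HL 10 mM, groups that overlapped. The difference of 0.09 (95% interval −0.19 to 0.37, adjusted p = 0.591) did not pass, and turned to −0.092 with libraries scaled to the same median. BKT2 had 1.18, 1.17 and 1.27 in LL 1 mM, against 4.54, 7.55 and 5.35 in HL 10 mM, and 4.70 ± 1.53 in LL 10 mM. It was low in LL 1 mM, with a difference of −1.60 (standard error 0.21, adjusted p = 0.000133). At this low level the size depended on the setting, at −0.89 on deposited FPKM and −2.19 with a pseudocount of 0.1. The ratio of BKT1 to BKT2 within a library, in deposited FPKM and chosen after the levels were seen, was 25.3, 21.3 and 19.6 in LL 1 mM, against 9.96, 4.95 and 8.51 in HL 10 mM, and 7.29 ± 1.81 in LL 10 mM (SD, n = 3). This ratio divides by low values, as BKT2 had 1.47, 1.64 and 1.94 deposited FPKM in LL 1 mM.

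The xanthophyll cycle interconverts zeaxanthin, antheraxanthin and violaxanthin, with the epoxidase ZEP working toward violaxanthin and the de-epoxidase VDE away from it. ZEP did not separate the stresses. It had 69.7, 60.9 and 66.8 in LL 1 mM, against 57.8, 60.9 and 69.4 in HL 10 mM, and all 6 libraries lay below the 112 ± 3.01 of LL 10 mM. The difference was 0.07 (95% interval −0.10 to 0.25, adjusted p = 0.481), and −0.21 (adjusted p = 0.0282, where the alternatives ran between 0.0282 and 0.901) with libraries scaled to the same median. The VDE genes moved in opposite directions. VDE Cz06g02070 had 71.4, 71.1 and 72.3 in LL 1 mM, against 105, 111 and 116 in HL 10 mM, a difference of −0.62 (standard error 0.06, adjusted p = 3.37e-05), or −0.94 scaled to the same median. VDE Cz06g01120 had 35.5, 35.3 and 33.4 in LL 1 mM, against 27.8, 27.0 and 28.3 in HL 10 mM. Its difference of 0.32 (standard error 0.07, adjusted p = 0.00421) was 0.55 on deposited FPKM and did not pass with libraries scaled to the same median, at 0.15 (adjusted p = 0.135, where the alternatives ran between 0.000158 and 0.135). The ratio of Cz06g01120 to Cz06g02070 within a library, in deposited FPKM and chosen after the levels were seen, was 0.510, 0.503 and 0.483 in LL 1 mM, against 0.239, 0.218 and 0.232 in HL 10 mM and 0.205 ± 0.00262 in LL 10 mM (SD, n = 3), with narrow spread in each condition.

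Neoxanthin synthase (NSY) makes neoxanthin from violaxanthin, and its gene copies also differed. NSY Cz15g04070 had 16.9, 18.1 and 20.6 in LL 1 mM, against 10.9, 11.7 and 12.3 in HL 10 mM, with 16.3 ± 1.36 in LL 10 mM, so that HL 10 mM was the lowest of these 3 conditions. The difference was 0.63 (standard error 0.09, adjusted p = 0.000202), or 1.07 on deposited FPKM. NSY Cz01g02290 had 14.0, 15.4 and 15.9 in LL 1 mM, against 15.1, 20.3 and 18.0 in HL 10 mM, both below the 39.4 ± 6.66 of LL 10 mM. The difference of −0.21 (95% interval −0.51 to 0.08, adjusted p = 0.196) did not pass and turned to 0.17 on deposited FPKM (adjusted p = 0.322, where the alternatives ran between 0.0716 and 0.519). The ratio of Cz15g04070 to Cz01g02290 within a library, in deposited FPKM and chosen after the levels were seen, was 1.19, 1.16 and 1.26 in LL 1 mM, against 0.668, 0.515 and 0.661 in HL 10 mM and 0.401 ± 0.0878 in LL 10 mM (SD, n = 3).

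Set beside LL 10 mM, the carotenogenic genes fell into 3 arrangements of mean levels, which depend on the scaling. After quantile normalization, for 12 of the 25 genes the unstressed mean lay between those of the 2 stresses. It lay above both for 7 genes, the PSY copies, LCYe, CYP97A2, ZEP, VDE Cz06g02070 and NSY Cz01g02290. It lay below both for 6 genes, CRTISO2, LCYb, CVDE, CYP97A1, BKT1 and VDE Cz06g01120. On deposited FPKM it lay between for 9 genes, above for 4 and below for 12, and with libraries scaled to the same median for 17, 4 and 4. This comparison of scalings was chosen after seeing the data, and 15 genes kept their arrangement under all 3. Above both throughout were LCYe, CYP97A2, ZEP and NSY Cz01g02290, and below both throughout were CRTISO2, CVDE, BKT1 and VDE Cz06g01120. The PSY copies and VDE Cz06g02070 were not above both under either other scaling. Some of these placements rest on gaps smaller than the spread between libraries, as for LCYb, whose libraries overlapped between LL 1 mM and LL 10 mM, at 98.1, 94.0 and 90.1 in the unstressed cells, and VDE Cz06g02070, at 110.3 ± 5.50 in HL 10 mM and 114 ± 2.48 in LL 10 mM (SD, n = 3). For CVDE and BKT1, the LL 10 mM libraries overlapped those of HL 10 mM. In LL 10 mM, CVDE had 9.04, 7.78 and 7.82, and BKT1 had 30.9, 28.2 and 24.4.

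**Figure D5:**
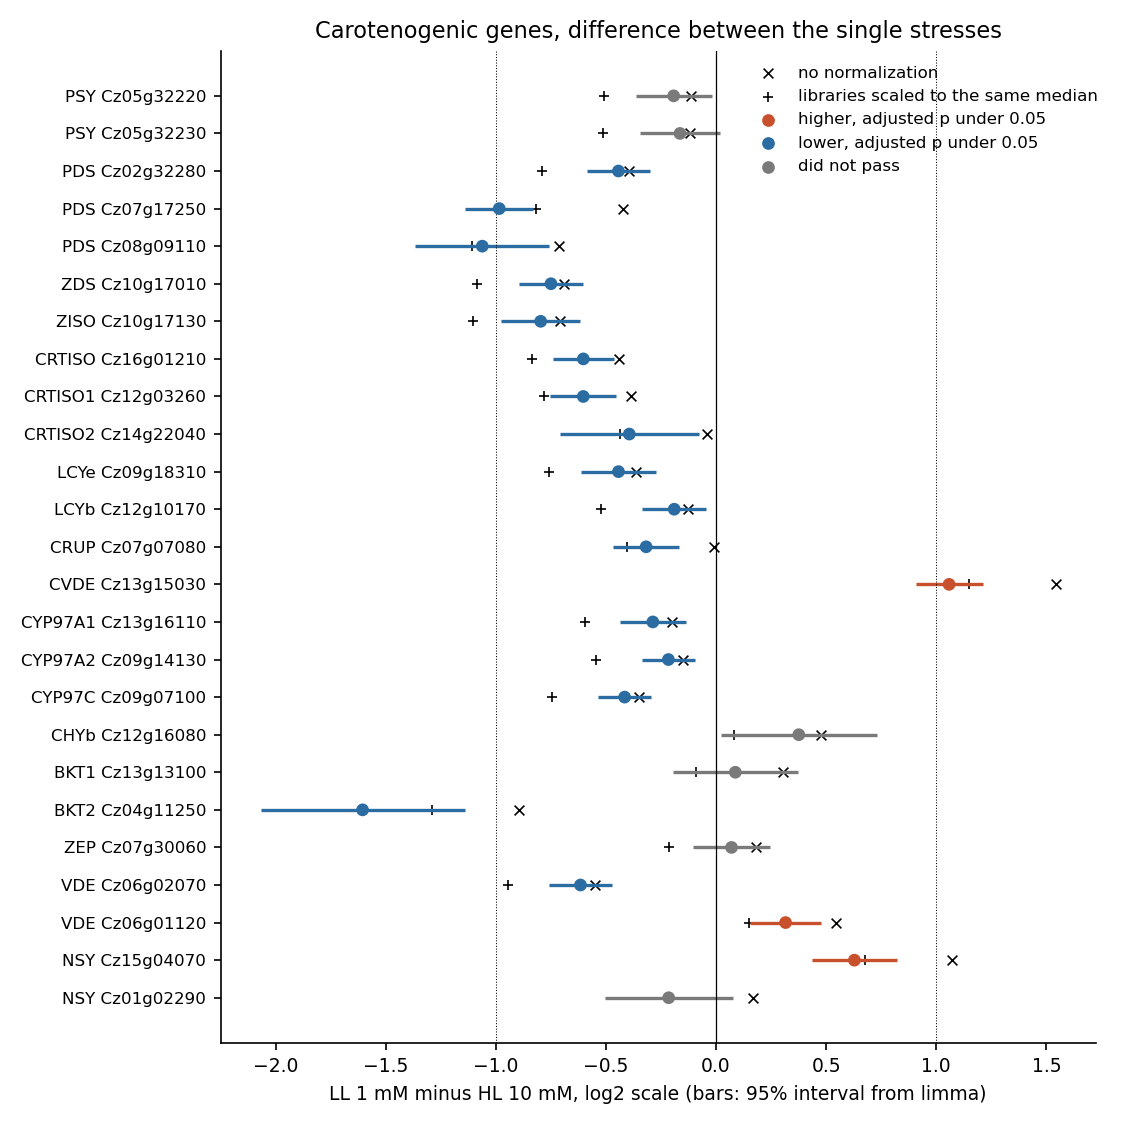
Difference between LL 1 mM and HL 10 mM on the log2 scale (horizontal axis) for the 25 carotenogenic genes after quantile normalization (points, with 95% intervals from limma), with the values on deposited FPKM (crosses) and with libraries scaled to the same median (plus signs). The dotted lines mark a 2-fold change, which CVDE exceeds at 1.06 and PDS Cz08g09110 and BKT2 at −1.06 and −1.60.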

How the data were processed

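The authors made stranded mRNA libraries, mapped reads with HISAT2 and quantified genes with StringTie in the MARACAS pipeline, on the published genome and annotation. The deposited table holds 1 column per library, read as FPKM from its values, before the quantile normalization that the paper's methods name. Of 15274 genes, 358 at 0 in all 12 libraries were left out. FPKM plus a pseudocount of 1 was log2-transformed and quantile-normalized over the 12 libraries. The 4 conditions entered a single linear model in limma 3.58.1 (R 4.3.3, default empirical Bayes, prior degrees of freedom 2.63), and LL 1 mM was contrasted with HL 10 mM. Thresholds were those of the paper's methods, single genes being called at the adjusted p alone. No 2 columns were identical. The steps were also run on simulated data, with libraries drawn independently around a common mean per gene and shifts in few genes. These simulated data held neither a correlation of libraries with the same replicate number nor a difference between conditions in the spread of expression over genes.

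The genes named are the 25 carotenogenic IDs and, among called genes whose libraries did not overlap, the 2 IDs with the largest differences each way. Members and lists were chosen with earlier results of these data known. The other IDs carry no product in the sources used here, so other pathways were not analysed, and no cell type markers apply to a unicellular alga. The deviations of same-numbered LL 1 mM and HL 10 mM libraries from their group means correlated across genes at 0.24, 0.17 and 0.29. Each value was above the minimum of 0.1 set for treating replicate numbers as pairs. The main model nonetheless held no block on the replicate number, and the fit with this block is given among the alternatives. With the block, both PSY genes and CHYb also passed. The labels give the replicate numbers without saying what they share.

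Alternatives were the replicate number as a block, no normalization, libraries scaled to the same median, the 6 libraries alone in the fit, empirical Bayes moderation with a trend and robust estimation, a pseudocount of 0.1, genes under a mean of 1 FPKM left out, a test against a 2-fold change, and each library left out in turn.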

Additional observations from a re-analysis of the deposited data

How the results depend on the processing

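The 865 higher and 341 lower genes at 2-fold became 1954 and 127 without normalization, and 239 and 40 when limma tested against a 2-fold change, and a pseudocount of 0.1 gave 752 lower genes. At the adjusted p alone, 3267 higher and 4455 lower genes became 6611 and 1649 without normalization. Of the 865 higher genes, 864 were also called without normalization and 786 with the same median, and of the 341 lower genes 105 and 216, with none called in the opposite direction. The share of higher genes with LL 10 mM nearer HL 10 mM was 85.9%, 79.7% with a pseudocount of 0.1 and 93.4% without normalization. Leaving out each library in turn gave 791 to 923 higher and 304 to 414 lower genes at 2-fold, 2705 to 3330 and 3690 to 4500 at the adjusted p alone, and 3 to 4 carotenogenic genes higher and 14 to 17 lower.

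With the replicate number as a block there were 870 higher and 350 lower genes at 2-fold, and 4 carotenogenic genes were higher and 18 lower. Both PSY genes and CHYb were gained, and the block changed no other call of a named gene. The single-gene values under the alternatives, and the ranges given above, leave out the test against a 2-fold change. No carotenogenic gene passed that test. Of the 551 values of named genes under the other alternatives, 519 kept direction and side of the threshold, 19 lost the call, 10 gained it and 3 reversed. The reversals were NSY Cz01g02290 at 0.17 without normalization, and BKT1 at −0.092 and ZEP at −0.21 with the same median. Why the calls moved was not tested. Without counts or the depth of each library, the counting error of genes with low FPKM was not estimated. The 3 libraries a condition limit the precision of every difference.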

Other observations

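Genes that separated the stresses often lay next to each other in the order of their IDs. Of the 824 genes higher in LL 1 mM by the 2-fold rule on numbered chromosomes, 331 (40.2%) had an adjacent tested ID that was also called higher, against 10.9% of all tested genes on these chromosomes. For the 329 lower genes the number was 54 (16.4%), against 4.48%. The longest run of adjacent IDs was 7 for higher and 4 for lower genes. Strand handling in the quantification and overlaps between gene models are not given in the sources used here, and their part in these values was not tested.

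By the chromosome number in the ID, the share of genes higher in LL 1 mM by the 2-fold rule ran from 3.87% of 983 genes on chromosome 5 to 8.96% of 268 on chromosome 17, which also held the greatest share of lower genes, 5.97%. The smallest share of lower genes was 1.14% of 701 on chromosome 12. These shares are descriptions, and no test of position was made.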
